A study of Rattus norvegicus with 18 samples.

Results

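Glycolysis splits glucose into pyruvate and yields ATP without oxygen, and glycogen is the glucose store that a muscle fibre breaks down when it contracts. Fast-twitch fibres hold most of both systems, and several steps have a muscle isoform beside one that most tissues use. A list of 34 genes that cover these steps, from glucose entry to lactate export and from glycogen synthesis to its breakdown, was followed in RNA of rat tibialis anterior, a fast-twitch muscle of the lower hindlimb. Members were found by gene symbol, and 32 of the 34 had a row among the 30560 genes of the table. Expression of Pgk1 and Pfkfb1 is not analysed here. All 32 passed the filter on low counts in each fit.

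The 18 libraries fall into 5 groups, one library per sample. The diseased groups were 6 libraries of p16-null DMD rats and 3 of DMD rats, both of 9 months, set against 3 libraries of wild-type (WT) rats of 9 months. A second pair of groups held 3 libraries of WT rats of 18 months and 3 of WT rats of 3 months. DMD names a rat model of Duchenne muscular dystrophy, which is caused by loss of dystrophin, the Dmd product. The p16-null group carries the DMD genotype plus loss of p16, a cell cycle inhibitor made from Cdkn2a. The sources used here do not give the exact alleles or the strain, and no WT group with p16 loss alone was analysed here. The sample labels name no individual animal, and p-values then measure only the spread among libraries, which may be technical.

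Total estimated counts ran from 9.61 to 21.99 M per library. Levels below are normalised CPM, that is, counts scaled to a common library total with TMM factors over all 18 libraries. TPM, which also divides by transcript length and carries no TMM factor, is used for sums over gene lists, for isoform shares and for an alternative fit. Dmd averaged 42.5 ± 8.33 CPM in p16-null DMD and 36.9 ± 6.65 CPM in DMD, against 140.2 ± 26.9 CPM in WT of 9 months (SD, n = 6, 3 and 3). Cdkn2a averaged 12.3 ± 1.69 CPM in p16-null DMD and 14.2 ± 4.56 CPM in DMD, against 0.106 ± 0.0952 CPM in WT (SD, same n). The Cdkn2a row counts all products of the gene, so it does not check the p16-null label. Fast fibre genes, the defining markers of this muscle, summed to between 36166 and 80088 TPM in every library, over the 9 of 12 listed genes that are in the table.

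In DMD muscle most of the pathway was low. Of the 32 genes, 26 were lower and 4 were higher in DMD than in WT at 9 months (edgeR quasi-likelihood test, adjusted p under 0.05). Over all 14801 genes tested 21.8% were lower and 26.4% higher, 48.3% in either direction. That all-gene split depends on scaling, and with library totals it was 8.39% lower and 51.9% higher, with 21 of the 32 genes lower and 5 higher. The median log2 fold change was -1.86 for the 32 genes and 0.11 for all genes. In 26 of the 32 all DMD libraries lay below all WT libraries and in 4 above them. Such separation was found for 25.6% of all genes on the lower side and 30.9% on the higher. The RNA is from whole muscle, so fewer fibres and less RNA per fibre cannot be told apart. Every gene of glycogen synthesis (6 of 6) and of glycogen breakdown (5 of 5) was lower. The same held for 2 of 3 genes of sugar entry, 6 of 8 of upper glycolysis, 4 of 6 of lower glycolysis and 3 of 4 of pyruvate and redox handling.

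**Figure D1:**
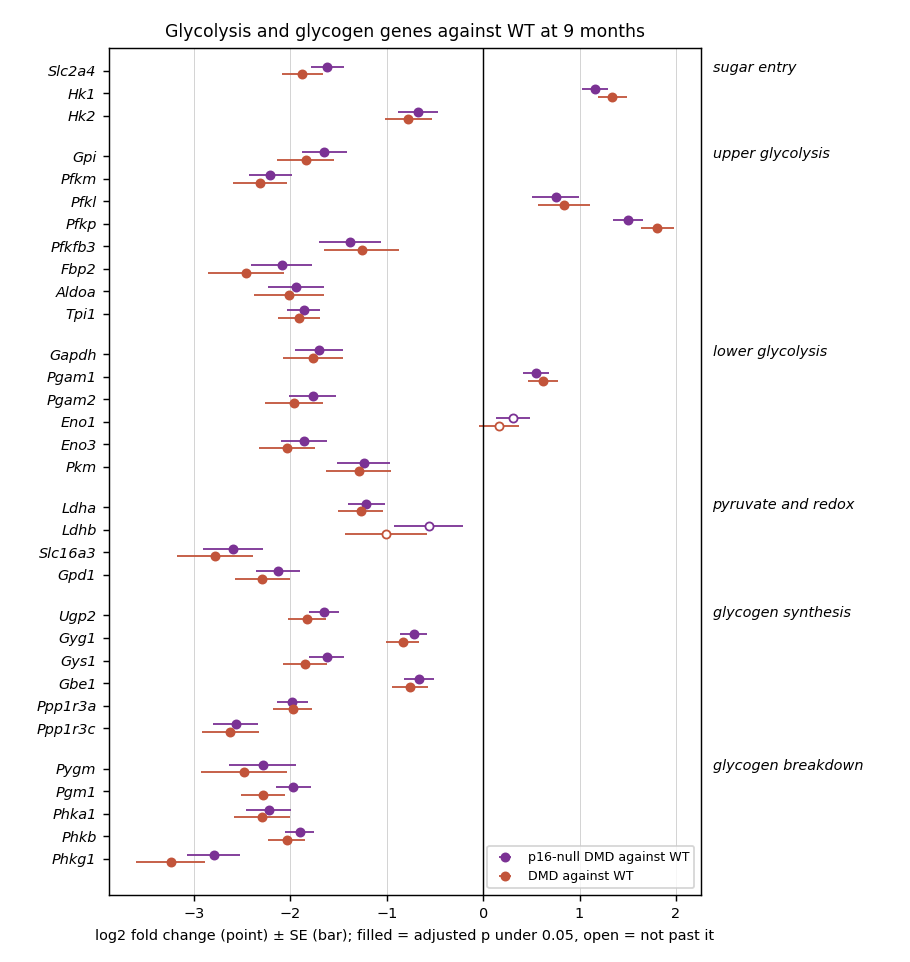
Log2 fold change of each of the 32 genes (x axis) with its SE (bar) in p16-null DMD and in DMD, each against the same 3 WT libraries of 9 months, grouped by role down the page. Filled points passed an adjusted p of 0.05; most lie left of 0, with Phkg1 farthest left at -2.80 in p16-null DMD and -3.24 in DMD, and Hk1, Pfkl, Pfkp and Pgam1 filled to the right of 0.

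Glycogen breakdown showed the largest single difference. Phkg1, the catalytic subunit of muscle phosphorylase kinase, had 20.1, 14.7 and 15.2 CPM in the 3 DMD libraries, against 161, 162 and 153 CPM in the 3 WT libraries. The groups lay far apart, a 9.47-fold lower level in DMD (log2 fold change -3.24 ± 0.36 SE, adjusted p = 7.76e-06). Phosphorylase kinase switches on glycogen phosphorylase, and 2 further subunits were measured. Phka1, a regulatory subunit, was lower by log2 -2.30 ± 0.29, and Phkb, the other regulatory subunit, by log2 -2.04 ± 0.19. Pygm, the muscle glycogen phosphorylase that releases glucose 1-phosphate, had 1730.0, 1699 and 1503 CPM in DMD and 9897, 8767 and 8974 CPM in WT. That is 5.58-fold lower in DMD (adjusted p = 0.000348). Pgm1, which turns glucose 1-phosphate into glucose 6-phosphate and so links glycogen to glycolysis, had 377, 399.7 and 332 CPM in DMD and 1946, 1729 and 1750.1 CPM in WT. All 3 DMD libraries were low and close together, at a 4.87-fold lower level (adjusted p = 3.87e-06).

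The side that builds glycogen was lower too, by unequal amounts. Gys1, the muscle glycogen synthase, had 130.4, 123 and 94.0 CPM in DMD and 471, 428 and 356 CPM in WT, 3.59-fold lower (adjusted p = 1.73e-05). Ppp1r3c, which brings protein phosphatase to glycogen and so favours synthesis, had 94.8, 118 and 91.0 CPM in DMD and 609, 602 and 669 CPM in WT. Its log2 fold change of -2.62 ± 0.30 was the largest fall of the 6 synthesis genes. Ppp1r3a, the glycogen-targeting subunit typical of striated muscle, differed by log2 -1.98 ± 0.20, and Ugp2, which makes UDP-glucose, by log2 -1.83 ± 0.19. The smallest falls were those of Gyg1, the glycogenin that primes a new particle, at log2 -0.83 ± 0.17, and Gbe1, the branching enzyme, at log2 -0.76 ± 0.19. For both, adjusted p was at most 0.00355, but their direction turned positive when counts were scaled to sarcomere genes, as given further on. Gys1 and Ugp2 kept their direction on that scale but lost their calls.

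At sugar entry the transporter fell and the hexokinases split. Slc2a4, the insulin-responsive glucose transporter of muscle, had 219, 209 and 173 CPM in DMD and 790.1, 764 and 663 CPM in WT, 3.67-fold lower (adjusted p = 8.33e-06). Hk2, the insulin-regulated hexokinase of muscle, had 43.4, 50.6 and 69.6 CPM in DMD and 93.6, 96.7 and 90.3 CPM in WT, a log2 difference of -0.77 ± 0.24 that turned to 0.53 on the sarcomere gene scale. Its call was lost without DMD replicate 1 (log2 -0.64). Hk1, the hexokinase of most tissues, went the other way, with 41.3, 44.4 and 51.6 CPM in DMD and 19.1, 15.3 and 19.9 CPM in WT. It was 2.53-fold higher in DMD (adjusted p = 9.27e-06), and no DMD library reached down to the WT range.

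Upper glycolysis held the widest spread of directions. Pfkm, the muscle phosphofructokinase and the main control point of the pathway, had 771, 701 and 569 CPM in DMD and 3655, 3474 and 3064 CPM in WT, 4.97-fold lower (adjusted p = 1.53e-05). Pfkp, the platelet-type isoform, had 23.6, 21.7 and 22.6 CPM in DMD and 6.52, 5.81 and 7.08 CPM in WT, 3.50-fold higher (adjusted p = 3.05e-06). Pfkl, the liver-type isoform, had 22.3, 17.1 and 19.5 CPM in DMD and 13.7, 5.67 and 13.3 CPM in WT. Its difference of log2 0.84 ± 0.27 was carried in part by WT replicate 2, the lowest library, and fell short of the threshold without it (log2 0.55) or without DMD replicate 1 (log2 0.72). Fbp2, the muscle fructose bisphosphatase that runs the opposite reaction, had 29.0, 20.1 and 19.7 CPM in DMD and 141, 160.2 and 79.2 CPM in WT. No DMD library came near the lowest WT library, and the level was 5.51-fold lower (adjusted p = 0.000149). Pfkfb3, which makes the activator of phosphofructokinase, had 63.3, 45.6 and 83.5 CPM in DMD and 153, 85.8 and 223 CPM in WT, log2 -1.26 ± 0.39. The WT libraries were themselves spread widely, and the call was lost without WT replicate 3 (log2 -0.90) or DMD replicate 2 (log2 -1.06), and the sign turned on the sarcomere gene scale (log2 0.06). The other 3 enzymes, Aldoa (aldolase), Gpi (glucose phosphate isomerase) and Tpi1 (triose phosphate isomerase), fell by log2 -2.02, -1.84 and -1.91.

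Lower glycolysis repeated the contrast between muscle and common isoforms. Pgam2, the muscle phosphoglycerate mutase, had 891, 905 and 673 CPM in DMD and 3762, 3124 and 2793 CPM in WT, 3.90-fold lower (adjusted p = 0.000102). Pgam1, the mutase of most tissues, had 98.4, 102 and 116 CPM in DMD and 64.1, 65.8 and 77.2 CPM in WT, 1.54-fold higher (adjusted p = 0.00442). The 2 mutases thus moved in opposite directions in the same libraries. Eno3, the muscle enolase, had 1545, 1652 and 1215 CPM in DMD and 6276, 6499 and 5410.1 CPM in WT, 4.10-fold lower. Eno1, the common enolase, had 204, 213 and 247 CPM in DMD and 218, 197 and 179 CPM in WT. Its groups overlapped and its difference of log2 0.16 ± 0.20 did not pass (adjusted p = 0.535), although it passed as higher under 4 of the alternatives, among them library totals (log2 0.82). Gapdh, often used as a reference gene, fell by log2 -1.76 ± 0.31, and Pkm, the muscle pyruvate kinase gene, by log2 -1.29 ± 0.33.

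Beyond pyruvate, 3 of 4 genes fell. Slc16a3, the carrier that exports lactate from fast fibres, had 43.0, 35.2 and 35.7 CPM in DMD and 319, 237 and 231 CPM in WT, 6.88-fold lower (adjusted p = 4.98e-05). Gpd1, the cytosolic glycerol phosphate dehydrogenase that passes reducing power to the mitochondria, had 257, 203 and 219.8 CPM in DMD and 1148, 1086 and 1110.5 CPM in WT, 4.90-fold lower. Ldha, the lactate dehydrogenase subunit of fast muscle, had 1344, 1493 and 1122 CPM in DMD and 3459, 3188 and 2931 CPM in WT, 2.41-fold lower. Each of these 3 genes had all its DMD libraries below all its WT libraries. Ldhb, the subunit of heart and oxidative fibres, had 86.2, 32.5 and 36.5 CPM in DMD and 116, 138 and 62.0 CPM in WT. Both groups held 1 library far from the other two, and the difference of log2 -1.01 ± 0.43 missed the threshold (adjusted p = 0.0619). It passed in 9 of the alternative fits, among them DESeq2 (log2 -1.06). Counts of Aldoa, Eno1, Gapdh, Ldha, Pkm and Tpi1 were fractional in every library, that is, some of their reads were shared out with other copies, and their values are less certain than those of the 26 genes whose counts were whole throughout.

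**Figure D2:**
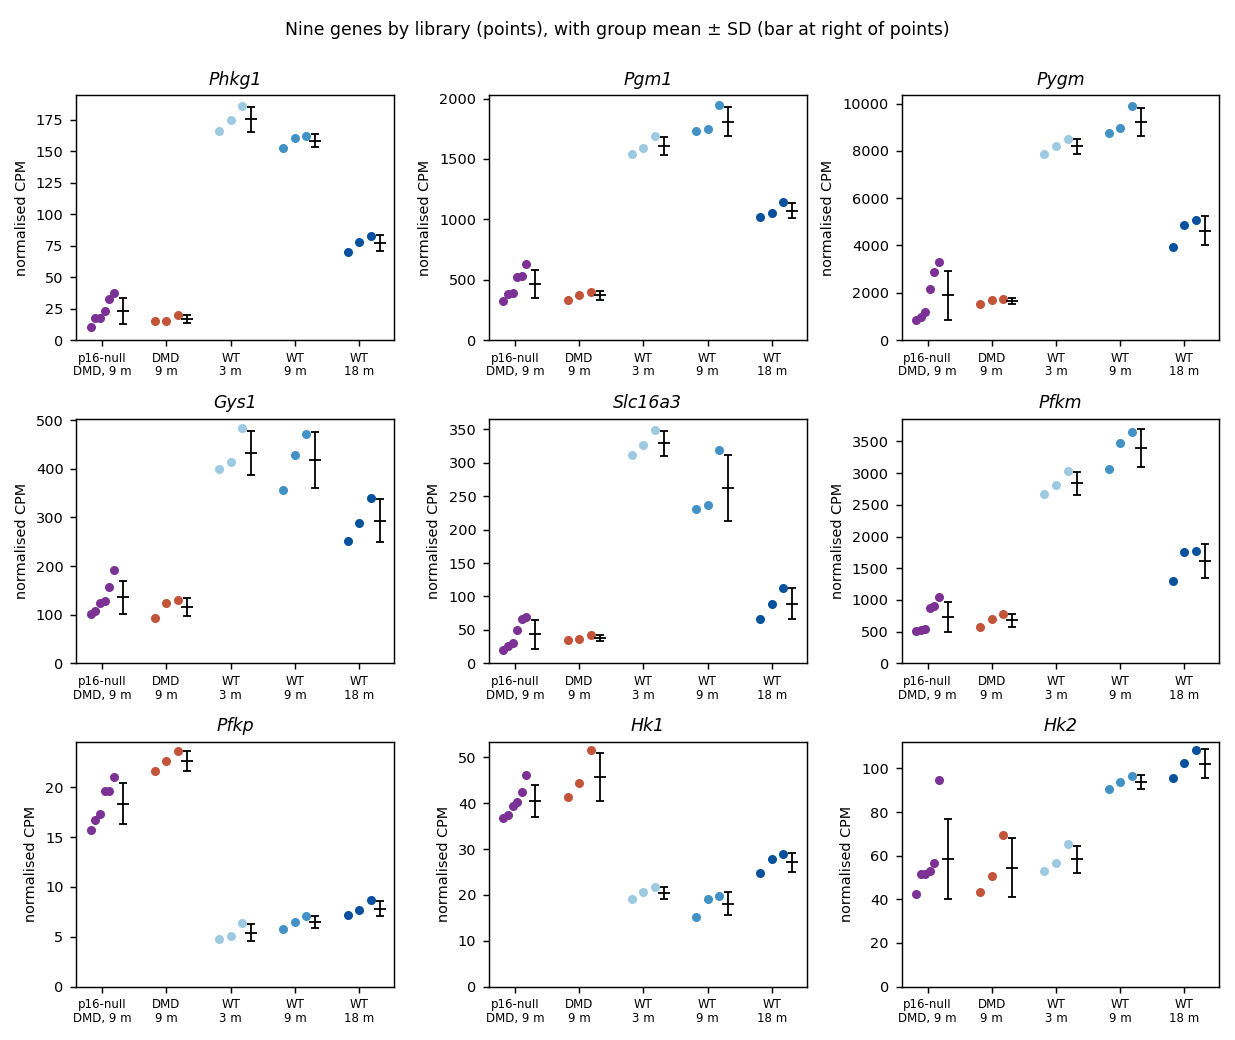
Normalised CPM by library (points) with group mean ± SD (bar) for 9 genes, in p16-null DMD, DMD and WT of 3, 9 and 18 months; each y axis starts at 0. Phkg1, Pgm1, Pygm, Gys1, Slc16a3 and Pfkm are low in both DMD groups, while Hk1 and Pfkp lie above all WT libraries there.

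The fall was then set beside the fall of the fibres' own structural genes, because the DMD and WT libraries differ in make-up. On average, the top 50 genes of a library held 31.6% of its counts in DMD and 48.7% in WT of 9 months. Summed over the 32 genes, TPM was 16386 to 33343 in p16-null DMD and 20215 to 23576 in DMD, against 44854 to 51962 in WT. The median log2 fold change in DMD was -1.86 for the 32 genes, against -1.27 for 12 sarcomere genes, of which 11 were lower, and -1.74 for the 9 fast fibre genes, all lower. When counts were scaled to the summed sarcomere genes, which moves the median of all genes to 1.39, 16 of the 32 were lower and 5 were higher (Eno1, Hk1, Pfkl, Pfkp and Pgam1), with a median of -0.60. On that scale 1.87% of all genes were lower and 70.0% higher. Phkg1 was still lower by log2 -1.96, Slc16a3 by log2 -1.49, Ppp1r3c by log2 -1.38, Pygm by log2 -1.21, Pfkm by log2 -1.05 and Pgm1 by log2 -1.02. Pkm and Ldha, at log2 -0.03 and -0.02, no longer differed beyond the threshold on this scale. Nor did Gapdh, Gpi, Gys1 and Ugp2, at log2 -0.51, -0.57, -0.58 and -0.55, or Gbe1, Gyg1, Hk2 and Pfkfb3, whose values were positive. Of the glycogen synthesis genes only Ppp1r3a and Ppp1r3c stayed lower.

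Markers of other cells moved with the same groups. All 10 macrophage genes were higher in DMD, with a summed TPM of 2341 to 6989 in p16-null DMD and 3292 to 5768 in DMD, against 307 to 394 in WT of 9 months. All 7 fibroblast genes, 7 of 8 genes of embryonic or regenerating fibres and 4 of 5 adipocyte genes were also higher in DMD. Every marker of these 4 lists was detected in both groups. Of the other immune lists, all 4 neutrophil genes and 3 of 4 T cell genes were higher. Red blood cell genes, of which 2 of 5 are in the table, were both lower, with a median log2 fold change of -2.61 and a summed TPM of 757 to 1311 in p16-null DMD and 436 to 890.2 in DMD, against 1898 to 2532 in WT. Among 5 endothelial genes 2 were lower. Summed TPM of all 5 was 252 to 343 in p16-null DMD and 192 to 301 in DMD, against 178 to 183 in WT. Among 9 slow fibre genes 1 was lower and 1 higher. The part of these cells in the levels of Hk1, Pfkp, Pfkl and Pgam1, or in the lower values of the other genes, was not tested.

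**Figure D3:**
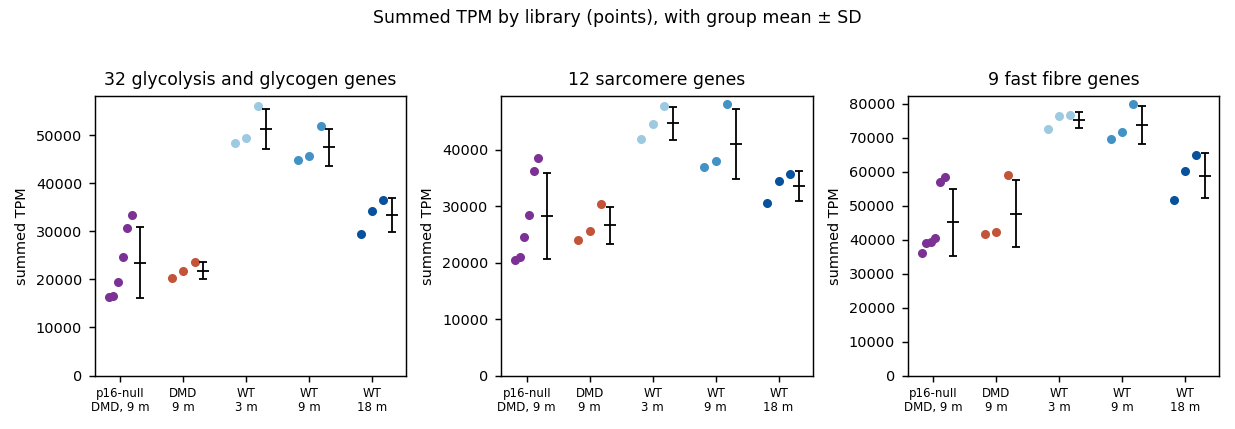
Summed TPM by library (points) with group mean ± SD, for the 32 glycolysis and glycogen genes, 12 sarcomere genes and 9 fast fibre genes, in p16-null DMD, DMD and WT of 3, 9 and 18 months. The 2 highest of the 6 p16-null DMD libraries, replicates 1 and 5, are the same in all 3 panels.

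A ratio of isoforms within a library does not depend on scaling between libraries, so the muscle isoform's share of TPM was compared next. Promoters are shown for 2 isoform pairs that moved apart, Pfkm with Pfkp and Pgam2 with Pgam1. The windows are the 250 bases before the annotated start, from RefSeq on build GRCr8, which is another build than the mRatBN7.2 of the counts. Pfkm lies at chr7:131113849-131114098, plus strand, Pfkp at chr17:68639563-68639812, plus strand, Pgam2 at chr14:84897875-84898124, minus strand, and Pgam1 at chr1:250672902-250673151, plus strand. Each is written 5′ to 3′ in the direction of its gene. Capitals mark matches, on either strand, to ACGTG (the core of a hypoxia response element), CAGCTG (an E-box bound by myogenic factors) and GGGCGG (a GC box).
Pfkm: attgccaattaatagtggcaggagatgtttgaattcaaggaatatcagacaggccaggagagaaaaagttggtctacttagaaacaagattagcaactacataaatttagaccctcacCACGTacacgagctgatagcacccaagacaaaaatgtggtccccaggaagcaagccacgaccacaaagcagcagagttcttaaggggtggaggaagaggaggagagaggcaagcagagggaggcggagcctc
Pfkp: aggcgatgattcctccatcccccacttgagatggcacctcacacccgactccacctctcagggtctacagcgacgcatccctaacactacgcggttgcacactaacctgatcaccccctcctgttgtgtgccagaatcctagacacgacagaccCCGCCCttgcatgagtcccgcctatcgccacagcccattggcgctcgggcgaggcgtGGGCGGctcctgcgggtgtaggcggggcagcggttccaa
Pgam2: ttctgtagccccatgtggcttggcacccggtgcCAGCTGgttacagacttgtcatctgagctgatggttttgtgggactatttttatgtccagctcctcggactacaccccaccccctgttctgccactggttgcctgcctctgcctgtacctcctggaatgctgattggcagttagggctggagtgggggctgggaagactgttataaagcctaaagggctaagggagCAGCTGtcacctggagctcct
Pgam1: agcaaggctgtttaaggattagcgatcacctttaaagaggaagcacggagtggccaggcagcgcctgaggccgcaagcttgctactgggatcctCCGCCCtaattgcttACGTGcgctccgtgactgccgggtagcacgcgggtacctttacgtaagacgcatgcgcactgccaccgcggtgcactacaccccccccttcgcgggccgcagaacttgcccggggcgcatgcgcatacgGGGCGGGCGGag

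The Pgam2 window held CAGCTG 2 times and no GC box, while the windows of Pgam1 and Pfkp held GC boxes and no CAGCTG. The window of Pfkm, the other muscle isoform, held neither of these and 1 match to ACGTG. Promoters were found for 30 of the 34 genes, Pfkfb1 among them, as 35 windows, since 4 genes have several. ACGTG was in 37.1% of these windows and in 16.6% of all 33469 promoters of the same length. GGGCGG was in 51.4% against 30.5%, CACGTG, which contains ACGTG, in 11.4% against 5.59%, and CAGCTG in 14.3% against 11.97%. CTAAAAATA, only 1 exact spelling of a site for MEF2 factors, was in 0% of the windows and 0.442% of all promoters. Other spellings of that site were not searched, so its absence from the windows is not shown. These shares count windows, not genes, and the 2 windows of Phkb overlap and hold the same GC box. GC content was not matched between the windows and all promoters. A match is a description of letters, not of binding.

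In 4 of 5 isoform families the muscle isoform held a smaller share in DMD, with no overlap between groups. Hk2 made up 56.0 ± 2.93% of hexokinase TPM (Hk1 plus Hk2) in DMD and 84.5 ± 2.04% in WT (SD, n = 3 each). Eno3 made up 87.8 ± 2.92% of enolase TPM (Eno1 plus Eno3) in DMD and 97.1 ± 0.259% in WT. Hexokinase was thus the family with the widest gap. Pfkm held 93.8 ± 0.911% of phosphofructokinase TPM in DMD and 99.5 ± 0.173% in WT. Pgam2 held 94.7 ± 1.25% of mutase TPM in DMD and 99.1 ± 0.233% in WT. For these 4 families the exact two-sided permutation test gave p = 0.1, the smallest value that 3 against 3 libraries allow (0.154 after adjustment over 20 tests). Ldha held 95.6 ± 2.33% of lactate dehydrogenase TPM in DMD and 96.3 ± 1.20% in WT, and these groups overlapped (exact permutation p = 0.7). The shares of Eno3 and Ldha rest on genes with shared reads.

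**Figure D4:**
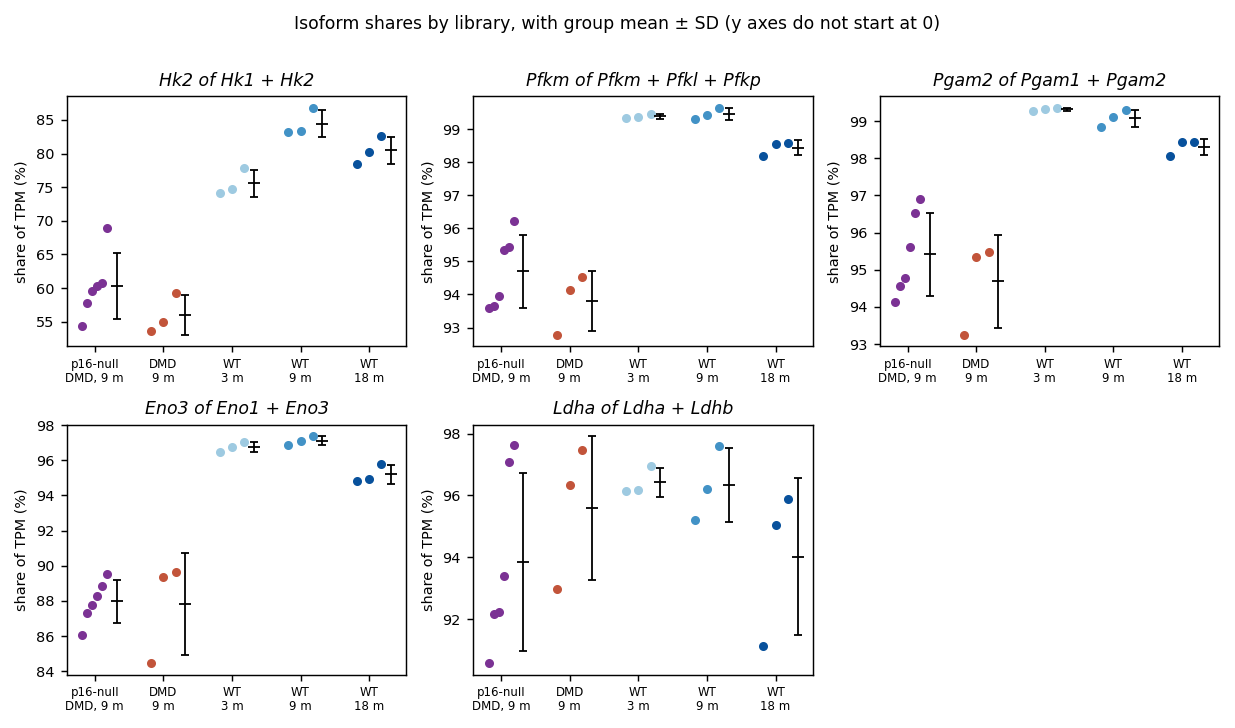
Share of TPM (%) held by the muscle isoform of 5 enzyme families by library (points) with group mean ± SD, in p16-null DMD, DMD and WT of 3, 9 and 18 months; y axes do not start at 0. Hk2, Pfkm, Pgam2 and Eno3 lie lower in both DMD groups than in every WT library of 9 months, while Ldha overlaps.

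Loss of p16 on the DMD background was the next question. Of the 32 genes, 0 differed between p16-null DMD and DMD by edgeR's quasi-likelihood test, and 0 did so by DESeq2, by limma or with any library left out. At an unadjusted p under 0.05 there was 1, Pfkp. Across all genes 1 passed, AC239701.1, which is named after its values were seen (counts of 0 to 1 in the 6 p16-null DMD libraries and of 91 to 144 in the 3 DMD libraries, adjusted p = 4.68e-07). That is 0.00676% in either direction, 0.00676% lower and 0% higher. DESeq2 called 13 genes lower and 2 higher, and edgeR without DMD replicate 1 called 80 lower and 5 higher. Fold changes of the 32 ran from log2 -0.30 to 0.45, with a median of 0.11, against 0.02 for all genes. The 95% intervals differed in width between genes and reached down to log2 -0.83 (Pfkfb3) and up to log2 1.24 (Ldhb).

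Pfkp had between 15.7 and 21.0 CPM, with a median of 18.4 CPM, in the 6 p16-null DMD libraries, against 23.6, 21.7 and 22.6 CPM in the 3 DMD libraries. The groups did not overlap, and the difference was log2 -0.30 ± 0.14 (unadjusted p = 0.0437, adjusted p = 0.924). No other gene of the 32 was separated in this way, while among all genes 0.878% lay wholly lower and 1.18% wholly higher in p16-null DMD. Pgm1 lay between 320.0 and 627 CPM, with a median of 455 CPM, in the 6 p16-null DMD libraries, against 377, 399.7 and 332 CPM in DMD, log2 0.32 ± 0.19 with a 95% interval of -0.09 to 0.72 (adjusted p = 0.939). Phkg1 lay between 10.01 and 37.1 CPM, with a median of 20.1 CPM, in the 6 p16-null DMD libraries, against 20.1, 14.7 and 15.2 CPM in DMD, log2 0.45 ± 0.30 with a 95% interval of -0.19 to 1.08 (adjusted p = 0.956). For both genes the p16-null DMD libraries reached above and below the DMD range. Isoform shares overlapped in all 5 families. Hk2 held 60.3 ± 4.86% in p16-null DMD (SD, n = 6) and 56.0 ± 2.93% in DMD (SD, n = 3), with an exact permutation p of 0.167.

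Within the p16-null DMD group 2 libraries stood above the others. Replicates 1 and 5 had the highest summed TPM of the 32 genes, at 30724 and 33343, and the other 4 had 16386 to 24607. The same 2 libraries were highest for sarcomere genes, at 36284 and 38581 TPM, and for fast fibre genes, at 56970 and 58427 TPM. Pygm ran from 833 to 3303 CPM within this group, a wider range than the 1503 to 1730.0 CPM of the DMD group. The first range is over 6 libraries and the second over 3, and a range tends to widen with more libraries.

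Against the same WT libraries that served DMD, p16-null DMD muscle gave the same counts by role. Lower were 26 of the 32 genes and higher were 4, namely Hk1, Pfkl, Pfkp and Pgam1. The call of Pfkl was lost without WT replicate 2 (log2 0.46). Across all genes 22.7% were lower and 27.5% higher, 50.2% in either direction. With library totals 22 of the 32 were lower and 5 higher, beside 8.45% and 54.5% of all genes. On the sarcomere gene scale 16 of the 32 were lower and 5 higher, beside 1.55% and 75.6% of all genes, and the log2 values of Gbe1, Gyg1, Hk2, Ldha and Ldhb turned positive. Separated from WT were 24 genes below and 4 above, beside 21.3% below and 23.9% above among all genes. The median log2 fold change was -1.67 in p16-null DMD against WT, and that of all genes 0.11. Phkg1 differed by log2 -2.80 ± 0.28, Slc16a3 by log2 -2.60 ± 0.31, Ppp1r3c by log2 -2.57 ± 0.23, Pygm by log2 -2.29 ± 0.35 and Pgm1 by log2 -1.97 ± 0.18. Their adjusted p-values lay at or below 8.16e-05. Among the higher genes Pfkp differed by log2 1.503 ± 0.16 and Hk1 by log2 1.16 ± 0.14. Hk2 and Pfkfb3 were called lower, at log2 -0.68 ± 0.20 and -1.38 ± 0.32, although 1 p16-null DMD library of each overlapped with WT. Eno1 (log2 0.31 ± 0.18) and Ldhb (log2 -0.57 ± 0.36) did not pass. The shares of Hk2, Pfkm, Pgam2 and Eno3 were again below all WT libraries (exact permutation p = 0.0238, the smallest that 6 against 3 allow, 0.119 after adjustment). This contrast shares its WT libraries with that of DMD, so likeness between them is no separate evidence.

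In older WT muscle most of the genes were lower as well. At 18 months 22 of the 32 were lower and 2 higher than at 3 months. Of all 13487 genes 10.1% were lower and 9.31% higher, 19.4% in either direction. The median log2 fold change was -0.75 for the 32 genes, beside 0.003 for all genes. In 25 genes all libraries of 18 months lay below all of 3 months and in 5 above, beside 18.2% and 17.9% of all genes. By role, the lower genes were 1 of 3 in sugar entry, 5 of 8 in upper glycolysis, 4 of 6 in lower glycolysis, 3 of 4 in pyruvate and redox handling, 5 of 6 in glycogen synthesis and 4 of 5 in glycogen breakdown.

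**Figure D5:**
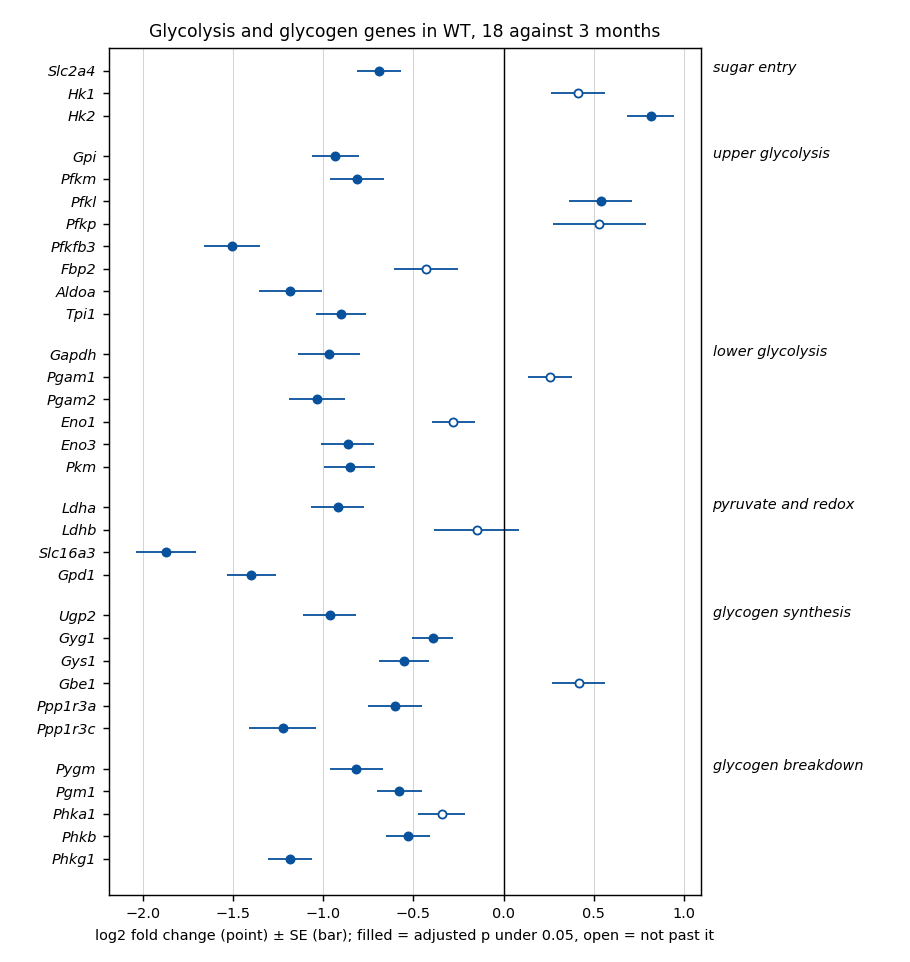
Log2 fold change of each of the 32 genes (x axis) with its SE (bar) in WT muscle of 18 months against 3 months, grouped by role down the page. Filled points passed an adjusted p of 0.05; Slc16a3 lies farthest left at -1.87, and Hk2 at 0.82 and Pfkl at 0.54 are the filled points right of 0.

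The lactate exporter showed the largest difference with age. Slc16a3 had 66.8, 88.9 and 113 CPM at 18 months and 312, 349.6 and 326 CPM at 3 months, 3.66-fold lower (adjusted p = 3.34e-06). Pfkfb3 had 38.1, 38.9 and 33.4 CPM at 18 months and 98.7, 129 and 87.7 CPM at 3 months, 2.84-fold lower. In both genes the groups did not overlap. Gpd1 had 412, 552 and 501 CPM at 18 months and 1259, 1341 and 1280.3 CPM at 3 months, 2.64-fold lower. Ppp1r3c had 185, 314 and 232 CPM at 18 months and 512, 699.6 and 506 CPM at 3 months, 2.34-fold lower. Phkg1 had 70.1, 82.9 and 77.6 CPM at 18 months and 166, 175 and 186 CPM at 3 months, 2.27-fold lower (adjusted p = 1.26e-05). These 5 genes, with Aldoa (log2 -1.18 ± 0.17) and Pgam2 (log2 -1.04 ± 0.16), were the ones that fell by more than 1 on the log2 scale. Pygm had 3946, 5078 and 4867 CPM at 18 months and 8194, 8499 and 7864 CPM at 3 months, log2 -0.82 ± 0.15. Pgm1 had 1023, 1052 and 1144 CPM at 18 months and 1543, 1694 and 1590.2 CPM at 3 months, log2 -0.58 ± 0.12. The remaining lower genes were Gapdh (-0.97), Ugp2 (-0.96), Gpi (-0.93), Ldha (-0.92), Tpi1 (-0.90), Eno3 (-0.87), Pkm (-0.85), Pfkm (-0.81), Slc2a4 (-0.69), Ppp1r3a (-0.60), Gys1 (-0.55), Phkb (-0.53) and Gyg1 (-0.39), all as log2 fold changes. Pgm1, Gys1, Phkb and Gyg1 turned positive on the sarcomere gene scale, to between 0.0226 and 0.21. Calls of Gys1, Gyg1 and Ppp1r3a did not hold with 1 library left out: Gys1 was lost without 3 of the 6 libraries, Gyg1 without 4 and Ppp1r3a without 2.

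Hk2 was higher with age, at 95.7, 102 and 109 CPM in muscle of 18 months and 56.5, 65.3 and 53.2 CPM in muscle of 3 months, 1.76-fold (adjusted p = 0.000497). Its share of hexokinase TPM was 80.5 ± 2.05% at 18 months and 75.6 ± 1.98% at 3 months (SD, n = 3 each). The shares of Pfkm, Pgam2, Eno3 and Ldha were lower at 18 months, by 0.949, 1.01, 1.56 and 2.40 percentage points (exact permutation p = 0.1 each, the smallest possible; 0.154 after adjustment). Pfkl had 15.5, 16.1 and 16.7 CPM at 18 months and 11.01, 10.5 and 11.8 CPM at 3 months, log2 0.54 ± 0.18 (adjusted p = 0.0439). That call was lost with DESeq2, with no filter and without any 1 of the 6 libraries. The 8 genes that did not pass were Fbp2, Phka1, Eno1, Ldhb, Pgam1, Hk1, Gbe1 and Pfkp, at log2 -0.43, -0.34, -0.28, -0.15, 0.26, 0.41, 0.42 and 0.53. The first 4 of these turned positive on the sarcomere gene scale.

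The number of lower genes with age depended on scaling. With library totals 18 of the 32 were lower and 6 higher, beside 4.86% and 19.3% of all genes. On the sarcomere gene scale, where the median of all genes moved to 0.61, 8 of the 32 were lower at 18 months (Aldoa, Gapdh, Gpd1, Pfkfb3, Pgam2, Phkg1, Ppp1r3c and Slc16a3) and 6 higher (Gbe1, Hk1, Hk2, Pfkl, Pfkp and Pgam1), beside 1.45% and 48.3% of all genes. Fast fibre genes were lower at 18 months in 8 of 9 and sarcomere genes in 5 of 12. Macrophage genes were higher in 9 of 10, with a summed TPM of 689 to 999 at 18 months and 289 to 508 at 3 months, and all 8 genes of embryonic or regenerating fibres were higher. Red blood cell genes were lower in 2 of 2, with a median log2 fold change of -2.39 and a summed TPM of 458 to 547 at 18 months and 1464 to 2658 at 3 months. Lower were also 3 of 7 fibroblast genes and 2 of 5 endothelial genes. Summed TPM of the endothelial genes was 256 to 261 at 18 months and 208 to 220 at 3 months. Higher were 3 of 9 slow fibre genes, 1 of 5 adipocyte genes, 0 of 3 neutrophil genes and the 1 T cell gene tested. The part of these cells in these values was not tested.

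WT muscle of 9 months, which the study's design sets against the disease groups, is described beside the other ages with no test. Its libraries overlapped those of 3 months for 24 of the 32 genes, lay above for 5 (Hk2, Pfkm, Pgm1, Phka1 and Pygm) and below for 3 (Eno1, Gpd1 and Phkg1). At 18 months 23 genes lay wholly below 9 months and 4 wholly above (Gbe1, Hk1, Pfkl and Pfkp). The shares of all genes separated in this way were not counted for these pairs of ages. Between 18 and 3 months they were 18.2% below and 17.9% above. The mean at 9 months was nearer to that at 3 months for 28 of the 32. This was not counted over all genes either, so it is not shown to be particular to the 32. Pygm, for example, averaged 8186 ± 318 CPM at 3 months, 9213 ± 602 CPM at 9 months and 4631 ± 602 CPM at 18 months (SD, n = 3 each). The median ratio of means over the 32 genes was 0.969 for 9 over 3 months and 0.612 for 18 over 9 months.

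Disease and age were set side by side, since DMD against WT at 9 months and 18 against 3 months share no library. All 22 genes that were lower at 18 months with TMM scaling were also lower in DMD, which is 84.6% of the 26 lower in DMD. On the sarcomere gene scale fewer genes were lower with age, and of those Gapdh and Pfkfb3 were not called in DMD (log2 -0.51 and 0.06). Among all genes tested in both contrasts 962 were lower in both, which is 70.5% of those lower at 18 months and 29.9% of those lower in DMD. Higher in both was 1 of the 32, Pfkl, and Hk2 was lower in DMD yet higher at 18 months. Among all genes 559 were higher in both, which is 44.7% of those higher at 18 months and 16.4% of those higher in DMD. Lower in DMD and higher at 18 months were 133 of all genes. The Pfkl call with age did not hold with a library left out, and Hk2 in DMD turned to log2 0.53 on the sarcomere gene scale. The order of sizes differed between the contrasts: Phkg1 changed most in DMD (log2 -3.24, against -1.18 with age), while Pfkfb3 had log2 -1.26 in DMD and -1.51 with age. Phka1 and Fbp2 had log2 -2.30 and -2.46 in DMD, and -0.34 and -0.43 with age, where neither passed.

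Other genes of the same pathways were counted from a list of 50, of which 46 were in the table and 39 were tested at 9 months. In DMD against WT 22 of these were lower and 11 higher, beside 21.8% and 26.4% of all genes, so the share of higher genes was close to that of all genes. The mitochondrial glycerol phosphate dehydrogenase Gpd2 differed by log2 -2.11 ± 0.34, the pyruvate dehydrogenase kinase Pdk2 by log2 -2.03 ± 0.25, and the mitochondrial pyruvate carrier subunit Mpc1 by log2 -1.87 ± 0.19. Among the 11 higher genes, the liver phosphorylase Pygl differed by log2 2.59 ± 0.36 and the brain phosphorylase Pygb by log2 1.07 ± 0.29. The neuronal enolase Eno2 differed by log2 2.19 ± 0.29 and the widely expressed glucose transporter Slc2a1 by log2 1.08 ± 0.24. These are only some of the 11, and the list's largest fold change, log2 6.34, was in a gene not named here. Between p16-null DMD and DMD 0 of the 39 passed by edgeR (5 at an unadjusted p under 0.05). In p16-null DMD against WT 21 were lower and 10 higher, beside 22.7% and 27.5% of all genes.

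With age 10 of 36 tested were lower and 5 higher, beside 10.1% and 9.31% of all genes. Mpc1 was lower by log2 -1.24 ± 0.15 at 18 months and Gpd2 by log2 -1.01 ± 0.14. A few genes were lower in DMD and higher with age with TMM scaling. Their directions on the sarcomere gene scale are not reported here. Among all 13428 genes tested in both contrasts, 133 were called lower in DMD and higher at 18 months. Pdk4, which restrains pyruvate oxidation, differed by log2 -1.09 ± 0.41 in DMD and 1.11 ± 0.23 with age. Stbd1, a glycogen-binding protein, differed by log2 -0.86 ± 0.23 in DMD and 0.91 ± 0.13 with age, and Gaa, the lysosomal glycogen-degrading enzyme, by log2 -1.14 ± 0.18 and 0.41 ± 0.12.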

How the data were processed

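The authors deposited 2 tables for 18 libraries, expected counts (estimated counts per gene) and TPM. The tools named, per the submitters' processing notes, are STAR 2.7.10b, RSEM 1.3.3, Trimmomatic and FastQC, with build mRatBN7.2. Per the labels' protocols, TruSeq libraries were made from total RNA of frozen muscle sections, extracted with an RNeasy mini kit. For the annotation release and the strand setting the entry is: not given in the sources used here. Of the 30560 rows 7162 have no symbol, and 4.50% of the deposited expected counts are not whole. No column was left out.

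Counts were rounded, filtered with filterByExpr, scaled by TMM and tested with edgeR 4.0.16 (quasi-likelihood) in R 4.3.3, in 1 fit of the 12 libraries of 9 months (14801 genes) and 1 fit of the 6 libraries of 3 and 18 months (13487 genes). P-values were adjusted by Benjamini-Hochberg over all genes of a comparison. The SE is the fold change divided by the square root of F. Isoform shares of the deposited TPM were tested by exact permutation, with Benjamini-Hochberg over 20 tests. Alternatives were RLE scaling, library totals, scaling to 12 sarcomere genes, DESeq2 1.42.0, limma 3.58.1 on log2 of the deposited TPM (pseudocount 1, then 0.1), dropping the filter, 5 CPM in 3 libraries, only the groups compared, 1 fit of 18 libraries, a replicate block, and each library left out. Depth was 9.61 to 21.99 M estimated counts per library. Chi-square per degree of freedom between replicates was 12.5 to 83.7, above counting error. The steps were tested on simulated data.

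The genes, lists and tests were chosen with earlier results of these data known. Values per library were given for the isoform families and for main enzymes, and for p16 loss and age the genes that passed, or else the 3 with the smallest p, were named. Values of Slc16a3 per library, Eno1 and Fbp2 with age, and the genes compared between disease and age were added after their values were seen. Some results on listed genes are not reported here.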

Additional observations from a re-analysis of the deposited data

Results flagged for a closer look

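In groups of 6 libraries the highest and lowest values were checked for a wide gap to the rest, over 37 values, and 3 stood apart, all in single p16-null DMD libraries. Chance alone gives such a gap in about 1 of 20 groups. Hk2 was at 94.8 CPM in p16-null DMD replicate 4, against 42.5 to 56.8 CPM in the other 5. Pfkfb3 was at 109.9 CPM in replicate 3, against 35.1 to 55.0 CPM in the others. Ppp1r3c was at 192.5 CPM in replicate 5, against 74.5 to 99.9 CPM in the others. The causes were not tested.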

How the results depend on the processing

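Scaling had the largest effect. With library totals, all genes higher and lower numbered 7688 and 1242 in DMD against WT, 8069 and 1251 in p16-null DMD against WT, and 2606 and 655 at 18 against 3 months, and members higher with age numbered 6. With sarcomere gene scaling the same counts were 10368 and 277, 11186 and 229, and 6512 and 195. Members lower were then 16 in DMD, 16 in p16-null DMD and 8 with age, and members higher with age 6. With limma on TPM they were 8079 and 1023, 8850 and 961, and 2848 and 325 (pseudocount 1), with 6 members higher and 14 lower with age. A pseudocount of 0.1 gave 8285 and 993, 9015 and 930, and 2176 and 230, with 6 members higher and 8 lower with age. Between p16-null DMD and DMD, DESeq2 called 2 genes higher and 13 lower, and limma (pseudocount 0.1) 2 lower. In 1 fit of 18 libraries 868 genes and 17 members were lower with age, and 1 member was higher.

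Signs turned positive with sarcomere gene scaling for Gbe1 (log2 0.514), Gyg1 (0.40), Hk2 (0.53), Ldhb (0.30) and Pfkfb3 (0.0627) in DMD, for Gbe1 (0.62), Gyg1 (0.56), Hk2 (0.57), Ldha (0.0171) and Ldhb (0.78) in p16-null DMD against WT, and for Gyg1 (0.21), Gys1 (0.0369), Pgm1 (0.0226) and Phkb (0.0664) with age, where Eno1 (0.32), Fbp2 (0.16), Ldhb (0.47) and Phka1 (0.24), none of which had passed, turned as well. In p16-null DMD against WT, Ldhb turned with library totals (0.0538). With limma on TPM at pseudocounts 1 and 0.1 so did Gbe1 (0.0717 and 0.0734), Gyg1 (0.0334 and 0.0335), Hk2 (0.0308 and 0.0310) and Ldhb (0.169 and 0.171). The cause was not tested.

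With each library left out, members lower numbered 25 to 27 in DMD, 26 in p16-null DMD against WT and 19 to 23 with age, and members higher with age 1 to 2. All genes in p16-null DMD against DMD ranged from 0 to 5 higher and from 1 to 80 lower, the most without DMD replicate 1. All genes lower with age ranged from 843, without replicate 1 of 18 months, to 1255. The difference in Ldha share (DMD minus WT) ranged from -1.68 to 0.56 points, and in Eno3 share (p16-null DMD minus DMD) from -1.53 to 1.06 points.

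Replicate numbers showed no clear pairing of the libraries: deviations of same-numbered libraries correlated at -0.207 to 0.0421 over 9 pairs and 0.0162 to 0.108 over 3 pairs. With so few libraries per group these values cannot exclude a pairing, and the sample labels do not state one. In 8 of 24 checks of a library against another group, the best match had the library's own number. With the replicate block, members lower were 26, 26 and 24 in DMD, p16-null DMD against WT and age, and 0 genes were lower in p16-null DMD against DMD. Pgam1 in p16-null DMD against WT then missed the threshold (log2 0.41). Depth was enough to count all 32 members in every library.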

Other observations

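Genes that regulate these pathways were counted from a list of 22, of which 18 were tested. In DMD against WT 13 were lower and 2 higher, beside 21.8% and 26.4% of all genes. Six4, a homeobox factor of muscle, was lower by log2 -2.31 ± 0.17. Prkaa2, the muscle catalytic subunit of AMP-activated kinase, was lower by log2 -2.55 ± 0.29. The higher ones were Hif1a, the oxygen-sensitive factor that drives glycolytic genes, at log2 1.498 ± 0.20, and Tbc1d1, a brake on glucose transporter traffic, at log2 0.55 ± 0.17. In p16-null DMD against WT 13 were lower and 2 higher as well, beside 22.7% and 27.5% of all genes. Between p16-null DMD and DMD 0 passed by edgeR (2 at an unadjusted p under 0.05), and Six4 was at log2 0.60 ± 0.14 (adjusted p = 0.38) with groups that did not overlap.

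At 18 against 3 months 3 regulators were lower and 4 higher, beside 10.1% and 9.31% of all genes, and the medians of the list were log2 0.05 with age and -1.12 in DMD. Prkaa2 was lower with age by log2 -0.97 ± 0.12, and Tbc1d4, which acts beside Tbc1d1, by log2 -0.79 ± 0.17. Six4 was higher with age at log2 0.56 ± 0.14, and Myod1, a myogenic factor, at log2 1.37 ± 0.20, while Myod1 was lower in DMD at log2 -1.06 ± 0.36. All values of the regulator list are with TMM scaling, and those on the sarcomere gene scale are not reported here. Hif1a was at log2 -0.06 ± 0.21 with age and did not pass.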
